A study of Mus musculus with 4 samples.

Results

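The 36 genes described here encode the kinetochore, the centromere on which it is built, the chromosomal passenger complex and the spindle checkpoint. They were chosen by name from CENP proteins, the Ndc80, Mis12, Ska and Rod-Zwilch-Zw10 complexes, the passenger and checkpoint proteins, and the partners Cdca5 and Spag5. The choice was made with earlier results of these data known, so the counts of this group are not those of a neutral draw. Other genes of the same families stand in a further list below, with smaller counts. A gene was read from probe sets annotated to its symbol alone, which 35 of the 36 had. No signal of Hjurp was used, because its probe sets carry several symbols, and Hjurp enters only the promoter counts. The 35 genes stand among 18193 genes with such a probe set and were read by 70 probe sets, with more than 1 probe set for 19 of the genes.

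The kinetochore is the protein assembly that ties a chromosome to spindle microtubules during cell division. Its inner layer sits on nucleosomes that hold the histone variant Cenpa, its outer layer binds microtubules, and the spindle checkpoint delays the separation of chromatids until all kinetochores are attached. Transcripts of most of these proteins accumulate late in the cell cycle and are scarce in cells that have left it, as muscle fibres have. In the first postnatal days of mice, heart muscle cells, the precursor cells of skeletal muscle and stromal cells still divide.

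RNA came from tibialis anterior muscle (TA, a fast muscle of the lower leg) and heart of C57BL/6J mice at postnatal day 9. The groups were MG56-knockout TA, wild-type TA, MG56-knockout heart and wild-type heart, where MG56 is another name of Hhatl, a membrane protein of the reticulum of striated muscle. The design text has RNA of 3 knockout mice pooled, and likewise RNA of an unstated number of wild-type mice, and each of the 4 groups is 1 Affymetrix array of such a pool. No replicate error exists, no p-value is given, and every ratio compares 2 pools. Which kind of allele was made, and the sex of the mice, are not stated.

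Signals are intensities on a linear scale with arbitrary units. Signals under 101.3, the median of all probe sets and arrays, were raised to that value, called the floor here. A gene counts as measured between 2 arrays if either array had it at the floor or above. A fold with a raised signal on 1 side is a bound and is written "at least". Genes past 1.5-fold and 2-fold were counted as a description of size. Of the 35 genes, 34 reached the floor on 1 array or more and 26 on all 4. The exception was Cenph, a subunit of the inner kinetochore, at 47.7 in knockout TA, 82.2 in wild-type TA, 6.2 in knockout heart and 82.9 in wild-type heart, and with no signal at the floor it has no ratio. Signals of different genes are not compared, since probe sets differ in sensitivity, and in whole tissue fewer dividing cells and less RNA per cell cannot be told apart.

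The arrays matched their labels as far as markers show. All 15 cardiomyocyte markers reached the floor in both hearts, and all 14 skeletal fibre markers in both TA pools. The floor alone is a weak check, since 7 cardiomyocyte markers also reached it in knockout TA and 5 in wild-type TA. Likewise, 5 fibre markers reached it in knockout heart and 4 in wild-type heart. In wild type, the median log2 ratio of TA over heart was -6.68 for the cardiomyocyte markers and 8.30 for the fibre markers. Hhatl was 5.09-fold lower in knockout TA and 2.40-fold lower in knockout heart on its single probe set, and whether that probe set lies in the deleted sequence is not stated. Signals of Hhatl were 1078 in knockout TA and 5491 in wild-type TA, and 879.8 in knockout heart and 2109.5 in wild-type heart. The pools also differed in sex-linked transcripts. Uty, Eif2s3y and Kdm5d, on the Y chromosome, had log2 ratios of 1.44, 0.83 and 0.65 in TA and 1.20, 1.14 and 0.71 in heart, while Xist had -0.52 in TA and -0.38 in heart. The part of this difference in the results below was not tested.

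In knockout TA, 21 of the 33 measured genes were at least 1.5-fold lower than in wild-type TA and 0 were 1.5-fold higher, against 4.43% of all measured genes lower by that much and 4.18% higher. At 2-fold, 16 were lower, against 0.917% of all genes. At any size, 31 of the 33 were lower, against 51.2%. The median log2 ratio of knockout over wild type was -0.97, beside -0.01 over all genes. In knockout heart, 27 of 34 were at least 1.5-fold lower and 0 higher, against 4.17% of all genes lower and 2.68% higher. There 17 were 2-fold lower, against 1.19%, 33 of the 34 were lower at any size, against 50.3%, and the median was -0.99, beside -0.002. To set them beside genes of like brightness, the share was also taken over genes whose mean signal lay in the middle 50% of the group's. There 7.22% of genes in TA and 5% in heart were 1.5-fold lower, against 11 of 17 and 13 of 16 of the kinetochore and checkpoint genes in that range.

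Of the 21 genes past 1.5-fold in TA, 4 have a bound, because the knockout signal lay under the floor (Cenpe, Ndc80, Spc24 and Ttk). Of the 27 in heart, 4 do (Ndc80, Ska1, Ttk and Spag5). A second measured probe set was available for 12 genes in TA and 14 in heart, and in each tissue only Bub3 had probe sets on opposite sides of 0.

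**Figure D1:**
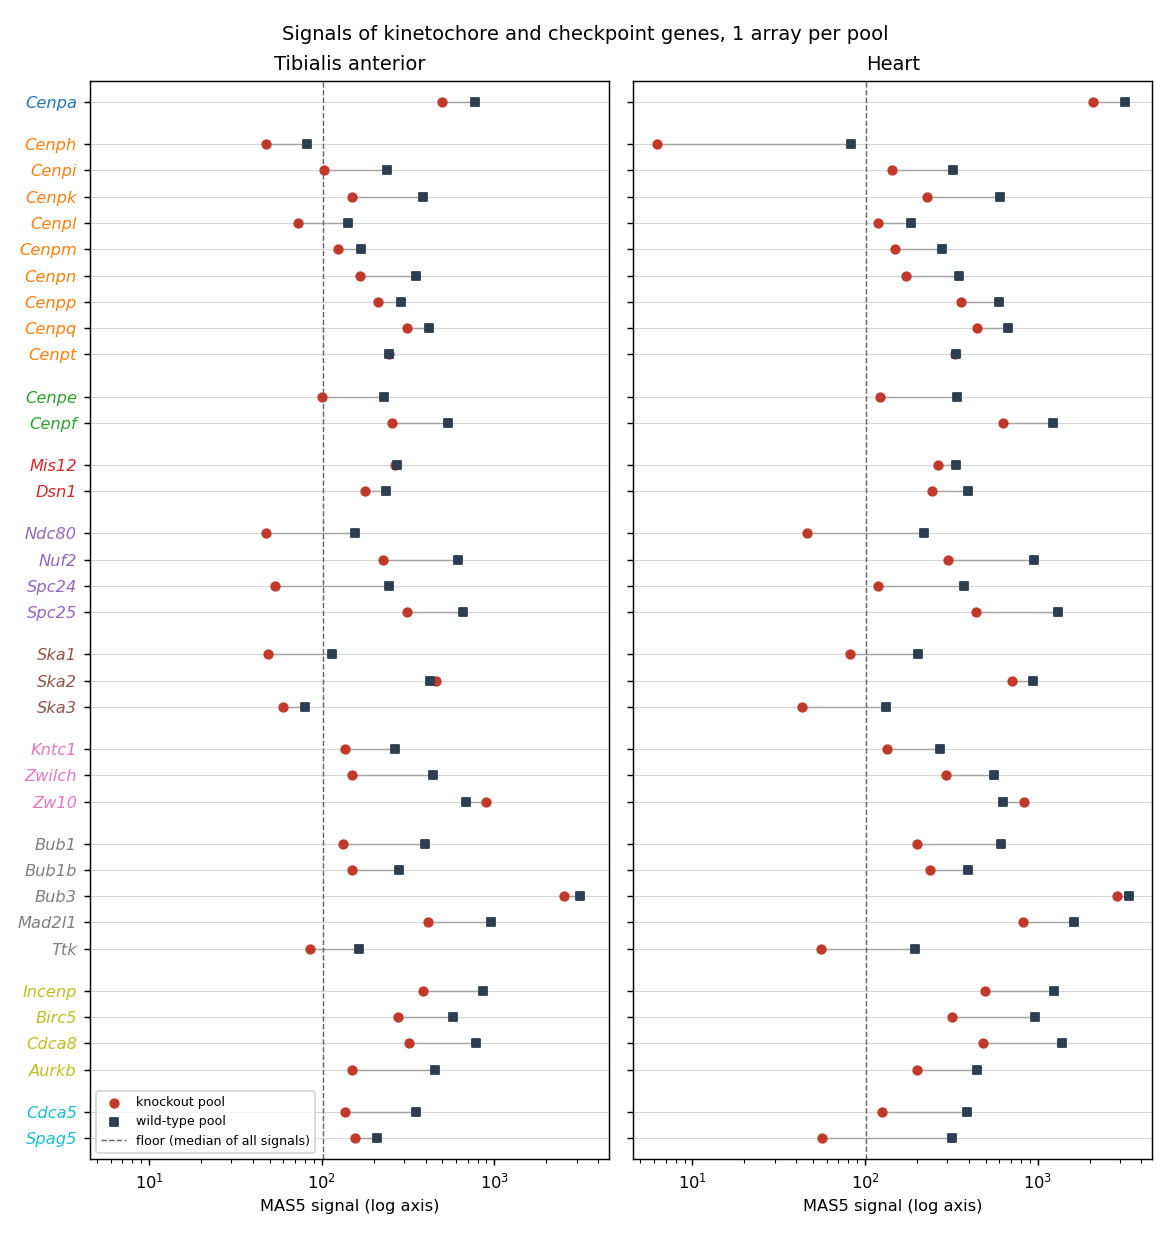
MAS5 signal (log axis) of each of the 35 genes in TA on the left and heart on the right, with a circle for the knockout pool and a square for the wild-type pool, 1 array each. The circle lies left of the square for all genes but Ska2 in TA and Zw10 in both tissues, and gene names are coloured by complex.

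Promoters were compared because many genes of mitosis share the CCAAT box, bound by NF-Y, and the cell cycle genes homology region (CHR), bound by the DREAM and MuvB complexes. RefSeq windows from 250 bases before to 50 after the start (build GRCm38.p6) were matched for 31 of the 36 genes by gene identifier, counting a gene once if any of its windows held a match on either strand. A CCAAT box was present in 21 of the 31 genes (67.7%), against 41.1% of all 27025 genes with a window, and at least 2 in 15 of the 31 (48.4%), against 13.3%. TTTGAA or TTCGAA, the forms of the CHR searched, stood in 18 of the 31 (58.1%), against 21.7%. Both elements stood in 14 of the 31, against 8.61% of all genes. E2F sites, searched as TTGGCGC, then as TTCCCGC, further as TTGCCGC and lastly as TTCGCGC, stood in 9 of the 31, against 10.9%. The shares describe letters in a window and not bound sites.

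The split by ratio was less clear. Of the 17 genes with a window that were 1.5-fold lower in both tissues, 11 held a CHR form (64.7%), and of the 11 other genes measured in both, 5 did (45.5%). A CCAAT box stood in 12 of the 17 and in 7 of the 11. At least 2 CCAAT boxes stood in 8 of the 17 (47.1%) and in 7 of the 11 (63.6%), a larger share of the other genes. Both elements together stood in 9 of the 17 and in 4 of the 11. E2F sites stood in 3 of the 17 and in 5 of the 11. The windows printed next were chosen after the values were seen, and do not mirror these counts. They set genes that were lower in both tissues beside a higher and a level one. Not printed are the 4 of the 11 that hold both elements (Bub3, Cenpl, Cenpm and Spag5). Mad2l1 and Birc5, which were 1.5-fold lower in both tissues and hold no match, are not printed either. Cdca8 (chr4:124936868-124937167, minus strand), Spc25 (chr2:69206164-69206463, minus strand), Bub1 (chr2:127831810-127832109, minus strand) and Kntc1 (chr5:123749476-123749775, plus strand) were lower in both tissues and hold both elements. Nuf2 (chr1:169531415-169531714, minus strand) was as low and holds no match. Zw10 (chr9:49055331-49055630, plus strand) was higher, and Cenpt (chr8:105851959-105852258, minus strand) was level. All are written from the gene's own strand, 5′ to 3′, with matches to any of the motifs, on either strand, in capitals (CCAAT reads ATTGG and TTTGAA reads TTCAAA on the other strand).
Cdca8: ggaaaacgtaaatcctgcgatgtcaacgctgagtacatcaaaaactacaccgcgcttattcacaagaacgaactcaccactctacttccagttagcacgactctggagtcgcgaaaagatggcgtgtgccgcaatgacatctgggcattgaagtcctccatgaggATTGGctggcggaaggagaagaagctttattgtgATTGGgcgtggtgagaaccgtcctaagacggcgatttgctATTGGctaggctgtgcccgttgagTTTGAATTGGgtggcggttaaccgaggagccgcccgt
Spc25: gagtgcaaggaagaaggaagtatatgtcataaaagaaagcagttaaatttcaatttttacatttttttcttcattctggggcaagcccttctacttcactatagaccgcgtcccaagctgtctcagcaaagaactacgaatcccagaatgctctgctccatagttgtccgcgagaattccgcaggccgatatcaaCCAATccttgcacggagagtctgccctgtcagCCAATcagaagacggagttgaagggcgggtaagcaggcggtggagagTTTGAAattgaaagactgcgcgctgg
Bub1: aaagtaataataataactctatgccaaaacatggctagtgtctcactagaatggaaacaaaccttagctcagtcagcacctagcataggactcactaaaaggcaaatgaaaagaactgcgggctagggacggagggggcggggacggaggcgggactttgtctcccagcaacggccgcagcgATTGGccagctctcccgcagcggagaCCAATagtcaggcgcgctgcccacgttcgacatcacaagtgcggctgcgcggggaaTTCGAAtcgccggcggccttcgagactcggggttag
Kntc1: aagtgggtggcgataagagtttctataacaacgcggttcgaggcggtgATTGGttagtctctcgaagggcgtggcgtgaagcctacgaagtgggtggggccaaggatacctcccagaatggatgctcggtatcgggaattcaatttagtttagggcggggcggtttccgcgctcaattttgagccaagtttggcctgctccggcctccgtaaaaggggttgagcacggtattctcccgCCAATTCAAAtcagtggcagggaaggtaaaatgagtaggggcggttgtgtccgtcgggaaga
Nuf2: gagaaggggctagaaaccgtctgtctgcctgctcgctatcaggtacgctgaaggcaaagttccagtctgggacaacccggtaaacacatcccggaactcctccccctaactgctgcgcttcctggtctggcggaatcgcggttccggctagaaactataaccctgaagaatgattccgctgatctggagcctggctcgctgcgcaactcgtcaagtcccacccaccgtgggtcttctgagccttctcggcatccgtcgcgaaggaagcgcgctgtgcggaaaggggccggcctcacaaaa
Zw10: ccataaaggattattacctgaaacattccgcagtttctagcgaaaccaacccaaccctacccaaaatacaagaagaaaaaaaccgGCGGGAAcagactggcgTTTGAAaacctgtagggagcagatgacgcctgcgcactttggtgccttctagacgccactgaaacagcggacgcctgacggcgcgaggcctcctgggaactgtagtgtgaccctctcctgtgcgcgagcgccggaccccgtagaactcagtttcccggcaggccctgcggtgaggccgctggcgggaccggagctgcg
Cenpt: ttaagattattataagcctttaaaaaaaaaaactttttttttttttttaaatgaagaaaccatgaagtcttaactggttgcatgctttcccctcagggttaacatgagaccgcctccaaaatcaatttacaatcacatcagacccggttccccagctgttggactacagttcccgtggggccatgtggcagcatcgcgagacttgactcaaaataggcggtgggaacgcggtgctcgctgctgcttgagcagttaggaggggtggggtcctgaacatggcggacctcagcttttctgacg
In Spc25 the CHR form begins at base 25 after the start and follows CCAAT boxes that begin at -55 and -23, and in Bub1 the form TTCGAA begins at base 15 and follows boxes at -68 and -42. In Cdca8 and Kntc1 the CHR form shares a base with a CCAAT box, so that the capitals run together. The Zw10 window holds TTTGAA at -148, beside an E2F match at -165, and no CCAAT box.

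The centromere is marked by Cenpa, the variant of histone H3 that replaces it in centromeric nucleosomes. Its signal was 498 in knockout TA and 778 in wild-type TA, 1.56-fold lower. In heart it was 2085 in knockout heart and 3205 in wild-type heart, 1.54-fold lower. Both knockout pools were thus lower by a similar factor, while the heart signals lay far above those of TA in either genotype. A second probe set had log2 ratios of -0.71 in TA and -0.37 in heart.

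The constitutive centromere network is the group of CENP proteins that stays on Cenpa nucleosomes and carries the outer kinetochore. It was uneven: 3 of its 8 measured genes were 1.5-fold lower in knockout TA and 6 in knockout heart, with medians of -0.46 and -0.81. Cenpk, which works in a complex with Cenph, Cenpi and Cenpm, had 150.1 in knockout TA and 388.5 in wild-type TA, and 228 in knockout heart and 606 in wild-type heart. The fold was 2.59 in TA and 2.66 in heart, both downwards in the knockout. Cenpi had 103 in knockout TA and 239 in wild-type TA, and 143 in knockout heart and 325 in wild-type heart, and was 2.33-fold lower in TA and 2.27-fold lower in heart. Its signal in knockout TA was barely above the floor. Cenpm, of the same subcomplex, differed less in TA, with 124 in knockout TA and 169 in wild-type TA, 1.36-fold lower, than in heart, with 150.1 in knockout heart and 279 in wild-type heart, 1.86-fold lower.

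Cenpn and Cenpl form the pair that reads Cenpa nucleosomes. Cenpn had 167 in knockout TA and 352 in wild-type TA, and 174 in knockout heart and 352.5 in wild-type heart. On this probe set the tissues had nearly the same level within each genotype, and the ratios were -1.07 in TA and -1.02 in heart on the log2 scale. A second probe set of Cenpn, above the floor on every array, gave smaller differences, -0.75 in TA and -0.73 in heart. On it the tissues differed, with 194 in wild-type TA and 354 in wild-type heart. Cenpl was dimmer, with 72.8 in knockout TA and 141 in wild-type TA, and 119 in knockout heart and 185 in wild-type heart, at least 1.40-fold lower in TA and 1.55-fold lower in heart. Cenpp and Cenpq belong to a further subcomplex and differed moderately. Cenpp had 213 in knockout TA and 288 in wild-type TA, and 362 in knockout heart and 595 in wild-type heart, a log2 ratio of -0.43 in TA and -0.72 in heart, and its second probe set gave -0.81 in TA and -0.98 in heart. Cenpq had 310.3 in knockout TA and 419.6 in wild-type TA, and 447 in knockout heart and 669.9 in wild-type heart, with ratios of -0.44 in TA and -0.58 in heart, the second just short of 1.5-fold. Cenpt, a DNA-binding subunit that also recruits Ndc80, did not share the difference. Its signals were 244 in knockout TA and 246 in wild-type TA, and 332 in knockout heart and 337 in wild-type heart, and its ratios of -0.01 in TA and -0.02 in heart were the closest to 0 of the measured genes in each tissue.

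Above the centromere, the Mis12 complex bridges the inner and outer kinetochore. Mis12 itself had 265 in knockout TA and 272 in wild-type TA, and 265 in knockout heart and 334.5 in wild-type heart, ratios of -0.04 in TA and -0.34 in heart. Dsn1, its partner, had 177 in knockout TA and 236.5 in wild-type TA, and 245 in knockout heart and 393 in wild-type heart, 1.33-fold lower in TA and 1.60-fold lower in heart. Of Mis12 and Dsn1, only Dsn1 passed 1.5-fold, and only in heart. Pmf1 and Nsl1, also of this complex, are in the further list below. Pmf1 had log2 ratios of -1.25 in TA and -0.49 in heart, and Nsl1 at least 0.37 in TA and -0.17 in heart.

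The Ndc80 complex is the rod that grips microtubules, with Ndc80 and Nuf2 at the microtubule end and Spc24 and Spc25 at the centromere end. Each of the 4 genes was lower by 1.5-fold or more in knockout TA and in knockout heart, with median log2 ratios of -1.18 in TA and -1.62 in heart. Nuf2 had 226 in knockout TA and 614 in wild-type TA, and 304 in knockout heart and 952.5 in wild-type heart, 2.72-fold lower in TA and 3.13-fold lower in heart. Its promoter is the one shown above without a motif match. Spc25 had 310.5 in knockout TA and 657 in wild-type TA, and 437 in knockout heart and 1319.9 in wild-type heart, 2.12-fold lower in TA and 3.02-fold lower in heart. A second, dimmer probe set of Spc25 gave only -0.01 in TA and -0.42 in heart, both bounds, since its knockout signals lay under the floor. The bright probe set, in contrast, stood well above the floor on all 4 arrays. Spc24 had 53.7 in knockout TA and 247 in wild-type TA, and 119 in knockout heart and 373 in wild-type heart, at least 2.44-fold lower in TA and 3.13-fold lower in heart. Ndc80 lay under the floor in both knockout pools, with 47.8 in knockout TA and 155 in wild-type TA, and 45.9 in knockout heart and 219 in wild-type heart, and was at least 1.53-fold lower in TA and at least 2.16-fold lower in heart. In all 4 genes the heart ratio was lower than the TA ratio, by 0.20 to 0.51 on the log2 scale. For Ndc80 and Spc24 that gap depends on the floor, and with no floor the Spc24 ratio was lower in TA, at -2.20, than in heart, at -1.65.

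Ska proteins form a complex that tracks shrinking microtubules and strengthens the hold of Ndc80. Ska1 had 49.0 in knockout TA and 115 in wild-type TA, and 82.0 in knockout heart and 203 in wild-type heart, at least 1.14-fold lower in TA and at least 2.0-fold lower in heart. Ska3 was under the floor in TA, with 60.0 in knockout TA and 79.8 in wild-type TA, and in heart had 43.2 in knockout heart and 132 in wild-type heart, at least 1.30-fold lower. Ska2 was brighter and behaved otherwise. Its signals were 462 in knockout TA and 423 in wild-type TA, and 710.3 in knockout heart and 946 in wild-type heart, which is 1.09-fold higher in knockout TA and 1.33-fold lower in knockout heart. A second probe set gave log2 ratios of 0.09 in TA and -0.31 in heart, the same signs. Neither ratio of Ska2 passed 1.5-fold, and whether the tissues differ was not tested.

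At the outer kinetochore, Cenpe is a kinesin motor that moves chromosomes towards the spindle equator and Cenpf a large coiled-coil protein that binds microtubules and dynein regulators. Cenpe had 100.6 in knockout TA and 231 in wild-type TA, and 122 in knockout heart and 339 in wild-type heart, at least 2.28-fold lower in TA and 2.77-fold lower in heart. A second, dimmer probe set of Cenpe gave log2 ratios of -0.36 in TA and -0.70 in heart, both bounds. Cenpf had 255 in knockout TA and 543 in wild-type TA, and 628 in knockout heart and 1222 in wild-type heart, 2.13-fold lower in TA and 1.94-fold lower in heart. A dimmer probe set of Cenpf was under the floor in TA and had a log2 ratio of -0.49 in heart, a bound. The wild-type pools were above the knockout pools for both genes in both tissues.

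Kntc1 (Rod), Zwilch and Zw10 form the complex that brings dynein and checkpoint proteins to unattached kinetochores. Their transcripts differed in direction: Zwilch and Kntc1 were lower in both knockout tissues and Zw10 was higher. Zwilch had 150.4 in knockout TA and 443 in wild-type TA, and 294 in knockout heart and 561 in wild-type heart, 2.94-fold lower in TA and 1.91-fold lower in heart. With a log2 difference between the tissues of -0.63, it was the 1 gene whose ratio was lower in TA by over 1.5-fold. Kntc1 had 136 in knockout TA and 266 in wild-type TA, and 134 in knockout heart and 273 in wild-type heart, 1.95-fold lower in TA and 2.04-fold lower in heart. Zw10, which also acts outside mitosis in tethering vesicles between Golgi and endoplasmic reticulum, had 896 in knockout TA and 682 in wild-type TA, and 832 in knockout heart and 631 in wild-type heart, 1.31-fold higher in TA and 1.32-fold higher in heart. Zw10 was the only gene of the group above 0 in both tissues, and neither ratio passed 1.5-fold.

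Among the spindle checkpoint genes, 4 of 5 were 1.5-fold lower in each knockout tissue. Bub1, a kinase that marks centromeric chromatin and docks other checkpoint proteins, had 134 in knockout TA and 394.5 in wild-type TA, and 199.8 in knockout heart and 617 in wild-type heart, 2.95-fold lower in TA and 3.09-fold lower in heart. A dimmer probe set of Bub1 was under the floor in TA and had a log2 ratio of -0.47 in heart, a bound, since its knockout signal there was under the floor. Bub1b, which encodes BubR1, a part of the inhibitor of the anaphase-promoting complex, had 150.5 in knockout TA and 282 in wild-type TA, and 237 in knockout heart and 397 in wild-type heart, 1.88-fold lower in TA and 1.68-fold lower in heart. Its second probe set gave -0.74 in TA and -0.94 in heart.

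Mad2l1, the gene of Mad2, another part of that inhibitor, had 414 in knockout TA and 953 in wild-type TA, and 819 in knockout heart and 1621 in wild-type heart, 2.30-fold lower in TA and 1.98-fold lower in heart. Ttk, the kinase Mps1 that starts checkpoint signalling, was under the floor in both knockout pools, with 86.0 in knockout TA and 166 in wild-type TA, and 55.8 in knockout heart and 196 in wild-type heart, at least 1.63-fold lower in TA and at least 1.94-fold lower in heart. Bub3, the partner of Bub1 and BubR1, differed least of the 5. It had 2539 in knockout TA and 3152 in wild-type TA, and 2877 in knockout heart and 3379 in wild-type heart, ratios of -0.31 in TA and -0.23 in heart, and a second probe set pointed the other way at 0.14 in TA and 0.05 in heart.

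The chromosomal passenger complex corrects faulty attachments. Aurkb is its kinase, Incenp its scaffold, and Birc5 (survivin) and Cdca8 (borealin) place it on the centromere. Each of the 4 genes was lower by 2-fold or more in knockout TA and in knockout heart. The probe sets that represent them all have names that mark possible matches to several transcripts. Aurkb and Birc5 have no probe set without such a name. On the measured probe sets without it, Incenp and Cdca8 did not reach 2-fold in TA, at -0.43 and -0.81, the latter a bound. Aurkb had 150.3 in knockout TA and 452 in wild-type TA, and 201 in knockout heart and 445 in wild-type heart, 3.01-fold lower in TA, and 2.22-fold lower in heart. That was the largest TA difference of the group with the floor, and with no floor Spc24, at -2.20, and Ndc80, at -1.70, were lower than Aurkb, at -1.59. The second probe set of Aurkb gave -1.34 in TA and -1.32 in heart, the TA value being a bound. Both probe sets of Aurkb thus place the knockout pools under the wild-type pools, and both may match several transcripts. Birc5 had 275 in knockout TA and 574 in wild-type TA, and 319.5 in knockout heart and 972 in wild-type heart, 2.08-fold lower in TA and 3.04-fold lower in heart. Cdca8 had 319 in knockout TA and 788 in wild-type TA, and 479.7 in knockout heart and 1388 in wild-type heart, 2.47-fold lower in TA and 2.89-fold lower in heart, and its 3 probe sets lay between -1.30 and -0.81 in TA and between -1.62 and -1.53 in heart. The dimmest of the 3 has only bounds, -0.81 in TA and -1.62 in heart, and all 3 have the same direction. Incenp had 385 in knockout TA and 855 in wild-type TA, and 498 in knockout heart and 1249 in wild-type heart, 2.22-fold lower in TA and 2.51-fold lower in heart, on a probe set whose name marks possible matches to several transcripts. A more specific probe set of Incenp gave log2 ratios of -0.43 in TA and -0.71 in heart, smaller differences, so that the size of the Incenp difference depends on the probe set.

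Cdca5 (sororin) protects the cohesion of sister chromatids, and Spag5 (astrin) holds stable attachments at the kinetochore and spindle. Cdca5 had 136 in knockout TA and 354 in wild-type TA, and 126 in knockout heart and 389.8 in wild-type heart, 2.60-fold lower in TA and 3.10-fold lower in heart. A second, dimmer probe set of Cdca5 gave log2 ratios of -0.70 in TA and -1.20 in heart, both bounds. Spag5 differed little in TA, with 156 in knockout TA and 210.5 in wild-type TA, 1.35-fold lower, and most of all in heart, with 56.0 in knockout heart and 319 in wild-type heart, at least 3.15-fold lower. Its knockout heart signal lay under the floor, and its other 2 probe sets were under the floor on all arrays, so the heart value rests on 1 dim signal.

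**Figure D2:**
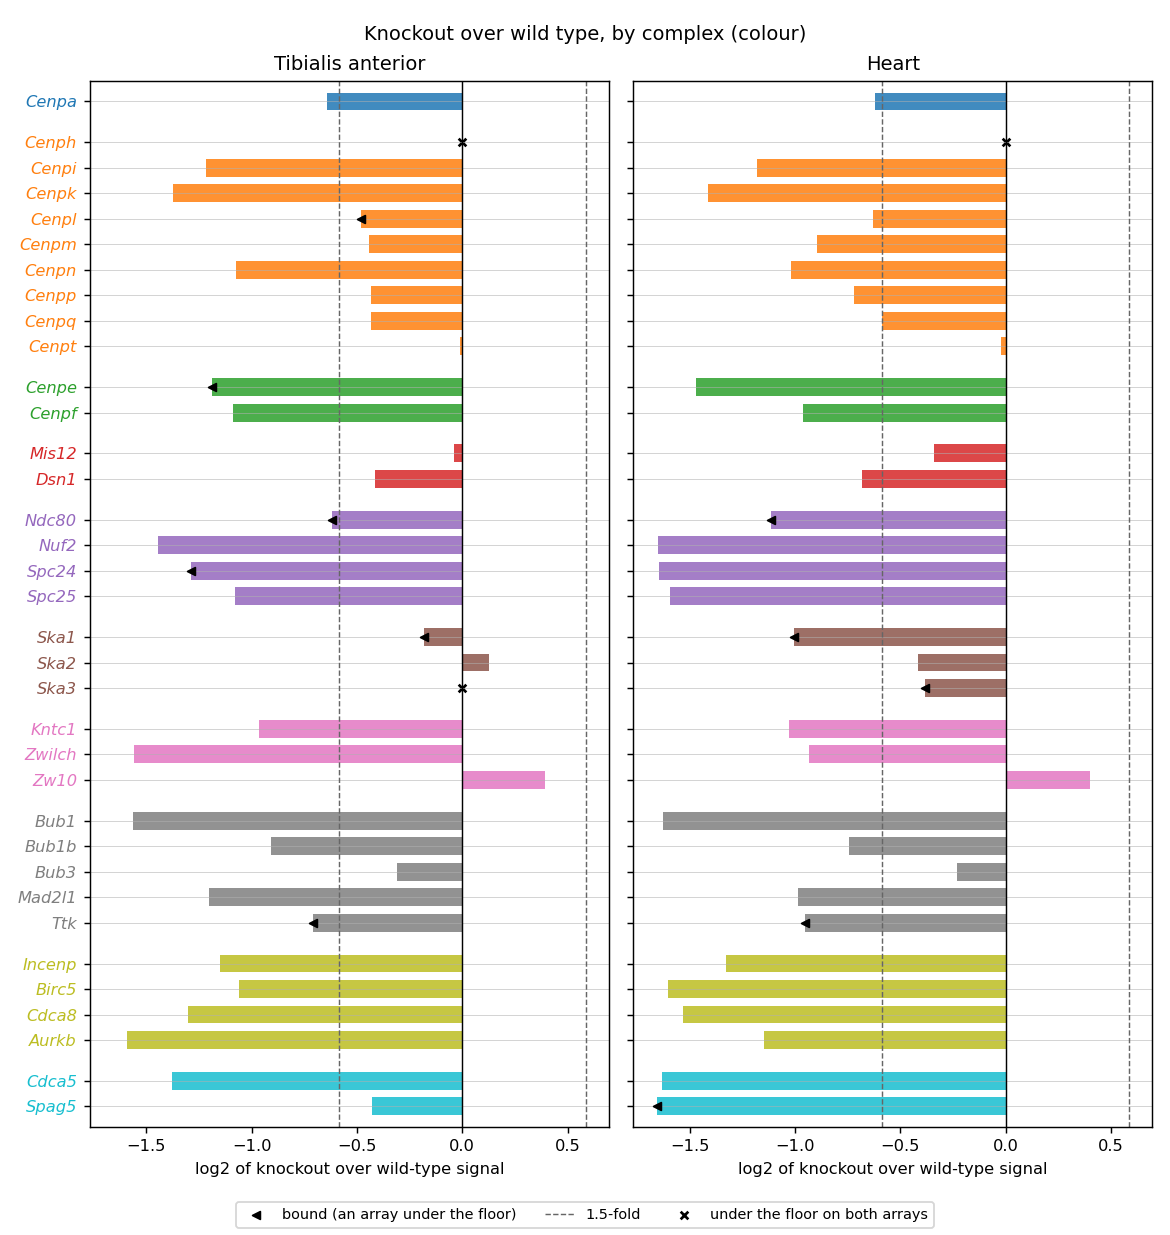
log2 of knockout over wild-type signal for each gene in TA (left) and heart (right), coloured by complex, with dashed lines at 1.5-fold, triangles for bounds and crosses for genes under the floor on both arrays. The Ndc80 and chromosomal passenger complexes lie wholly past 1.5-fold lower in both tissues. Of the genes measured in both, Cenpt, Mis12, Ska2, Bub3, Zw10 and Cenpq do not reach it in either, Cenpq only just in heart.

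Set by tissue, 31 of the 33 genes measured in both tissues lay below 0 in both, against 30.5% of all genes. All 21 genes past 1.5-fold in TA were also past it in heart (100% of the TA list and 77.8% of the heart list), and 1.47% of all genes were so in both. Passing 1.5-fold in heart and not in TA were Cenpl, Cenpm, Cenpp, Dsn1, Ska1 and Spag5, whose TA log2 ratios lay between -0.48 and -0.18. The TA ratios of Cenpl and Ska1 are bounds, and with no floor they were -0.96 for Cenpl and -1.23 for Ska1, past 1.5-fold, so the floor sets the split for these 2 genes. At 2-fold, 13 genes were shared, 81.2% of the 16 in TA and 76.5% of the 17 in heart, against 0.516% of all genes. The heart ratio was lower than the TA ratio for 23 of 33 genes, against 50% of all genes. The median difference of TA minus heart was 0.18, from -0.63 for Zwilch to at least 1.23 for Spag5, whose heart ratio is a bound. The floor enters this count. For Ndc80, Ska1 and Ttk both knockout signals were raised to it, so their difference is that of the wild-type signals alone. With no floor the ratio was lower in TA for Cenpl, at -0.96 against -0.63 in heart, and for Spc24, at -2.20 against -1.65. With 1 array a group these differences have no error and were not tested.

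**Figure D3:**
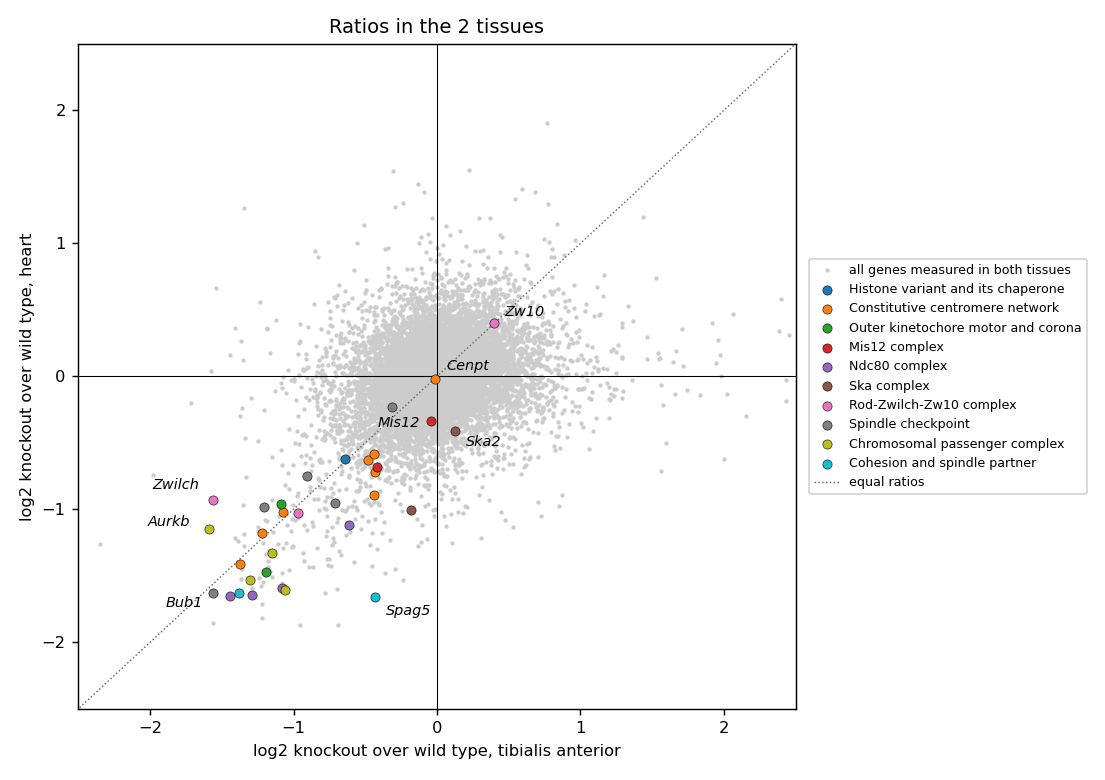
log2 of knockout over wild type in TA (x axis) against heart (y axis), with kinetochore and checkpoint genes coloured by complex, all genes measured in both tissues in grey (11 lie outside the axes) and a dotted line where the ratios are equal. Most coloured points lie in the lower left, away from the grey cloud, and Zw10 alone of the group lies in the upper right, inside the cloud.

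In wild type, TA was lower than heart for 32 of the 34 measured genes, against 55.1% of all genes, with a median log2 ratio of TA over heart of -0.57, beside -0.07 over all genes. By at least 1.5-fold, 17 were lower and 0 higher, against 18% and 14.5% of all genes. Among genes of like brightness, 7 of 16 were 1.5-fold lower, against 20.4% of all such genes. At 2-fold, 5 were lower, against 7.79%. Cenpa stood apart, at 778 in wild-type TA and 3205 in wild-type heart, 4.12-fold lower in TA, and its second probe set had a log2 ratio of -1.47. Cenpf was 2.25-fold lower, Ska2 2.24-fold lower, Cenpp 2.06-fold lower and Spc25 2.01-fold lower.

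Other genes hardly differed between the wild-type tissues. Aurkb had 452 in TA and 445 in heart, Cenpn 352 and 352.5, and Kntc1 266 and 273. The second probe set of Cenpn, however, had a log2 ratio of -0.86. Zw10, at 0.11, and Aurkb, at 0.02, were the 2 genes above 0. The comparison of tissues shares its wild-type arrays with the knockout comparisons, so the ratios are not independent.

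**Figure D4:**
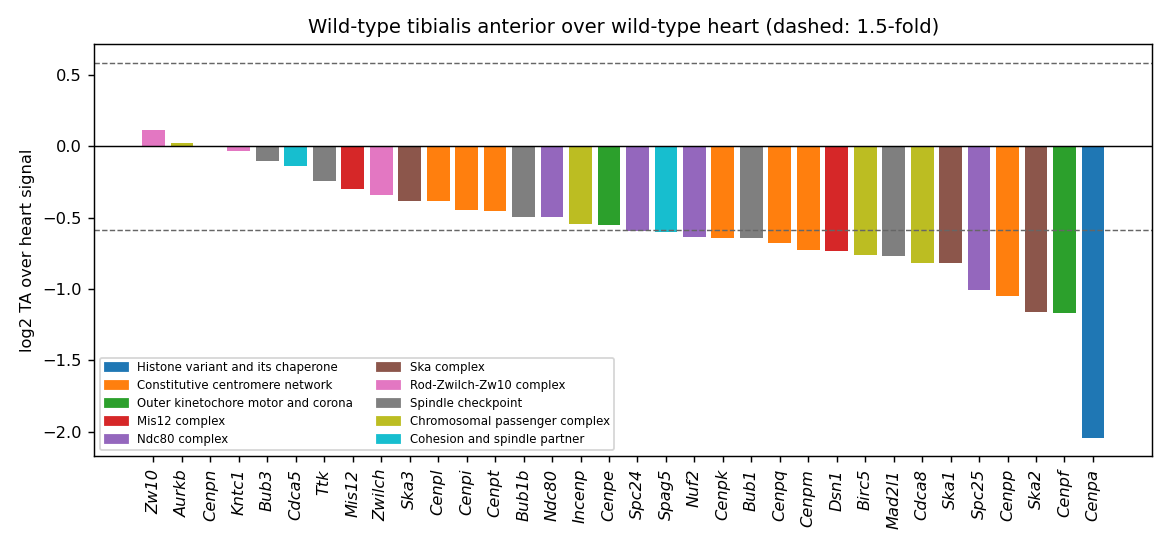
log2 of wild-type TA over wild-type heart signal for the 34 measured genes, in order, coloured by complex, with dashed lines at 1.5-fold. Cenpa has the lowest ratio, at -2.04, and only Zw10 and Aurkb lie above 0.

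A further list of 35 kinetochore and checkpoint genes outside the group had smaller counts, as 9 of 30 measured in TA and 11 of 32 in heart were 1.5-fold lower and 0 were higher. Its medians were -0.14 and -0.45. It holds genes with roles outside mitosis, such as Clasp1 and Ndel1, and also kinetochore proteins such as Itgb3bp, Nsl1 and Zwint. Log2 ratios in TA and heart were 0.47 and -0.43 for Itgb3bp, at least 0.37 and -0.17 for Nsl1, and 0.18 and -0.33 for Zwint. At any size, 19 of the 30 were lower and 11 higher in TA, and 25 of the 32 lower and 7 higher in heart. Why the counts were smaller was not tested. Cdc20, the activator of the anaphase-promoting complex that the checkpoint holds back, was the only gene of that list past 2-fold in both tissues. It had 607 in knockout TA and 1373 in wild-type TA, and 911 in knockout heart and 2459.6 in wild-type heart, 2.26-fold lower in TA and 2.70-fold lower in heart.

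The mitotic kinesin, spindle and cytokinesis genes had medians of -0.73 in TA and -1.34 in heart, with 19 and 21 of 23 genes 1.5-fold lower. DNA replication and nucleotide supply genes had -0.60 and -0.73, with 17 and 22 of 33. The kinetochore and checkpoint group, at -0.97 and -0.99, thus had the lowest median of the 3 lists in TA and the middle one in heart. These medians have no error, and the differences between lists were not tested.

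Markers of the cell types that these tissues hold mostly differed by less than 1.5-fold, though some lists leaned to 1 side. Of 12 satellite cell and myoblast markers measured in TA, 0 passed 1.5-fold in either direction, with a median of -0.12. Of the 12, 8 were lower and 4 higher at any size, with log2 ratios between -0.52 for Vcam1 and 0.36 for Dll1. Pax7, which marks satellite cells, had 457 in knockout TA and 572 in wild-type TA, and Myog, a factor of muscle differentiation, had 4902 in knockout TA and 3825 in wild-type TA. The fibroblast list had medians of -0.11 in TA and -0.10 in heart with 0 of 14 genes past 1.5-fold in each. At any size, 11 of these 14 were lower in TA and 13 in heart, against 51.2% and 50.3% of all genes. The endothelial list had -0.06 and -0.02, with 1 and 0 of 12 lower by 1.5-fold. The leukocyte list had 0.04 and 0.02, with 0 and 1 of 11 lower by that much. At any size, 7 of 12 endothelial markers were lower in each tissue, and 3 of 11 leukocyte markers in TA and 5 in heart. The 15 cardiomyocyte markers had a median of 0.06 in heart, and 0 passed 1.5-fold, with 12 higher and 3 lower at any size. The 14 skeletal fibre markers had -0.18 in TA, with 1 lower by 1.5-fold and 12 lower at any size. Summed signals of the satellite cell list were 22196.5 in knockout TA and 20996 in wild-type TA, with all 12 genes at the floor or above in both pools. Most of that sum came from Des, with 11819 in knockout TA and 11062 in wild-type TA, and from Myog, both higher in the knockout pool, while the median of the list was below 0. Des also had 5475 in wild-type heart, so its signal is not particular to satellite cells or myoblasts. The sum is therefore no measure of these cells. Summed signals of the fibroblast list were 182179 in knockout TA and 198534 in wild-type TA, and 143784 in knockout heart and 153580.0 in wild-type heart. The part of these cell types in the kinetochore differences was not tested.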

How the data were processed

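Each genotype and tissue is 1 array of pooled RNA, 4 arrays in all. The authors deposited 1 MAS5 signal intensity per probe set, on a linear scale, with MAS5 named in the submitters' processing notes. Its version, scaling target and detection calls are not stated. Trimmed means lay between 496 and 497 on every array, so no scaling was added.

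Of 45037 probe sets, 34945 carry 1 gene symbol in the platform annotation and were used. Where several probe sets of a gene were measured, the brightest by its mean over all arrays represented it. Log2 ratios and counts were computed with Python 3.11.15, pandas 2.3.3 and numpy 2.4.6, and the code was tested on simulated data. With 1 array a group no test was possible, and the number of arrays limits the precision. RefSeq tables (GRCm38.p6) gave promoters. All measured genes of the group are named, and of the further kinetochore and checkpoint list those past 2-fold in both tissues. Genes, lists and motifs were chosen with earlier results of these data known. Results were recomputed under 9 alternatives for scaling, floor and probe set.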

Additional observations from a re-analysis of the deposited data

Results flagged for a closer look

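Ska2 was higher in knockout TA, at 462 against 423 in wild-type TA, and lower in knockout heart, at 710.3 against 946 in wild-type heart. It was singled out because the single pool of each tissue lay on the opposite side of 0. Its log2 ratio in TA minus that in heart was 0.54. The difference was not tested. Under the alternatives its ratio lay between 0.11 and 0.14 in TA and between -0.44 and -0.36 in heart.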

How the results depend on the processing

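No paired analysis was possible because each group has 1 array. Under the 9 alternatives, no gene past 1.5-fold changed sign: of 173 recomputed values for the 21 genes lower in TA, 166 stayed past 1.5-fold, as did 216 of 223 for the 27 genes lower in heart and 123 of 144 for the 17 genes lower in wild-type TA than in wild-type heart. A floor at the 75th percentile (471.5) left 10 measured genes in TA and 16 in heart, since most of the group is dimmer than that. It gave 4 genes at least 1.5-fold lower in knockout TA, 8 in knockout heart and 8 in wild-type TA against wild-type heart, and 6 of 10 genes with a lower ratio in heart. With that floor the median of the Rod-Zwilch-Zw10 complex turned to 0.39 in TA, where only Zw10 was left, and 0.074 in heart, where Zw10 and Zwilch were left. Without probe sets that may match several transcripts, 9 of 27 measured genes in TA and 10 of 28 in heart were 2-fold lower, against 16 of 33 and 17 of 34. The 17 genes 1.5-fold lower in wild-type TA became 12 with centring or quantile normalization. Group medians ranged from -1.06 to -0.43 in TA and from -1.15 to -0.56 in heart. Dim signals limit the ratios given as bounds.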

Other observations

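The genes in both paragraphs here were chosen after their values were seen. Outside mitosis, Zw10 works with Rint1 and Nbas in a tether that receives Golgi vesicles at the endoplasmic reticulum, together with the membrane fusion proteins Stx18, Sec22b, Use1 and Bnip1. Rint1 had 221 in knockout TA and 154 in wild-type TA, and 279 in knockout heart and 241 in wild-type heart, with log2 ratios of 0.52 in TA and 0.21 in heart. Nbas had 633 in knockout TA and 425 in wild-type TA, and 389 in knockout heart and 436 in wild-type heart, with log2 ratios of 0.57 in TA and -0.16 in heart. Both were higher in knockout TA, as Zw10 was, and in heart they lay on opposite sides of 0. Log2 ratios in TA were 0.29 for Stx18, 0.40 for Sec22b, 0.06 for Use1 and -0.08 for Bnip1. In heart they were -0.08 for Stx18, -0.15 for Sec22b, 0.10 for Use1 and -0.12 for Bnip1. Scfd2 had 362 in knockout TA and 237 in wild-type TA, and 245 in knockout heart and 213 in wild-type heart, with log2 ratios of 0.61 in TA and 0.20 in heart. Scfd2, a protein of the same trafficking step, was the only gene of these 7 past 1.5-fold, in TA. There 4.18% of all measured genes were 1.5-fold higher. All of the 7 but Bnip1 have more than 1 probe set, and only the representing probe set is given here.

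Of the kinetochore and checkpoint genes outside the group, several passed 2-fold in 1 tissue. Sgo2a had log2 ratios of -1.33 in TA, a bound, and -0.76 in heart. Trip13 had -0.73 in TA and -1.14 in heart, and Spdl1 -0.77 in TA and -1.20 in heart, the last a bound. Plk1 had 157 in knockout TA and 185 in wild-type TA, and 131 in knockout heart and 379.6 in wild-type heart, with log2 ratios of -0.24 in TA and -1.53 in heart. Plk1 is a kinase of mitotic entry and of kinetochore attachment. Sgo1 had 148 in knockout TA and 281 in wild-type TA, and 137 in knockout heart and 298.5 in wild-type heart, with log2 ratios of -0.93 in TA and -1.12 in heart. Sgo1 (shugoshin) protects centromeric cohesion. Cenpw had 165 in knockout TA and 281 in wild-type TA, and 203.5 in knockout heart and 528 in wild-type heart, with log2 ratios of -0.77 in TA and -1.37 in heart. Cenpw pairs with Cenpt, which was level in both tissues. Cenpu had 139 in knockout TA and 141 in wild-type TA, and 112.5 in knockout heart and 233 in wild-type heart, with log2 ratios of -0.02 in TA and -1.05 in heart. Cenpu is the partner of Cenpq. Pmf1 had 121 in knockout TA and 289 in wild-type TA, and 229 in knockout heart and 321.5 in wild-type heart, with log2 ratios of -1.25 in TA and -0.49 in heart. Pmf1 belongs to the Mis12 complex, whose other measured genes differed less in TA. These differences between tissues were not tested.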
